A study of Homo sapiens with 6 samples.

Results

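MiR-103a-3p and miR-107 are a pair of microRNAs, short RNAs that lower the output of messenger RNAs they pair with. They were followed here in HuH7, a long-established cell line from a human liver cancer (hepatocellular carcinoma), as the 2 array probes that carry these names, of 2019 human probes on the array. The question the series asks is which microRNAs go with the effect of cisplatin, a platinum drug that crosslinks DNA. Control samples were HuH7 cells kept without cisplatin, and treated samples were HuH7 cells given 1 µg/ml cisplatin, both for 24 h, with 3 samples in each group. All 6 samples are of this 1 cell line. Replicates carry the numbers 1 to 3 in each group, and no label tells whether they were grown apart. The p-values therefore cover the scatter of these arrays alone, which may be technical, and the number of arrays limits the precision.

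Both microRNAs are made from hairpins that lie in introns of pantothenate kinase genes, whose enzymes carry out the rate-limiting step of coenzyme A synthesis. They are known for damping insulin sensitivity in liver, for targeting Dicer, the enzyme that cuts microRNA hairpins, and miR-107 for targeting the cell cycle kinase CDK6. The host of miR-107 is known as a target of p53, the transcription factor that DNA damage stabilises. A microRNA pairs with its targets mainly through its seed, bases 2 to 8 from the 5′ end.

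The mature sequences are shown because they set what the probes can tell apart. They are those of RefSeq on GRCh38.p14, 5′ to 3′, with the seed in capitals.
hsa-miR-103a-3p: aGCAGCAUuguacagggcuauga
hsa-miR-107: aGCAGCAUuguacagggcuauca
The seeds are identical, and 22 of 23 bases agree. The 1 difference is G22C, counted from 1 at the 5′ end, with the base of miR-103a-3p written first. It lies outside the seed and next to the 3′ end. Of 1716 array names found in the RefSeq table, no other than these 2 has this seed. The capture sequences of the probes were not used here, so how far the probe of one microRNA also binds the other is not known, and the 2 signals are given as signals of those probes.

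The hairpins are shown with the mature microRNA in capitals, since miR-103a-3p comes from 2 genes and miR-107 from 1.
MIR103A1: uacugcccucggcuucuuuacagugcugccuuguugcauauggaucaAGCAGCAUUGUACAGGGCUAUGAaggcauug
MIR103A2: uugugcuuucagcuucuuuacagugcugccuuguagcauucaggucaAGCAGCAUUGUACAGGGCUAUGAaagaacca
MIR107: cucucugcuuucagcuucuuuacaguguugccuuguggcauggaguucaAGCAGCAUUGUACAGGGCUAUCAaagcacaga
MIR103A1 (chr5:168560896-168560973, minus strand) lies inside PANK3, MIR103A2 (chr20:3917494-3917571, plus strand) inside PANK2 and MIR107 (chr10:89592747-89592827, minus strand) inside PANK1, all on GRCh38.p14. Each hairpin has the strand of its host gene. They start 18395, 28713 and 52415 bases from the 5′ end of the host. The 78-base hairpin of MIR103A2 and the 81-base hairpin of MIR107 share 69 bases over 81 aligned columns (85.2%), while MIR103A1 shares 63 of 78 (80.8%) with MIR103A2 and 64 of 81 (79.0%) with MIR107. Mature miR-103a-3p is thus the summed product of 2 loci, whose shares cannot be told apart by its probe.

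Another 2 probes on the array belong to these loci. MiR-103a-2-5p is the other arm of the MIR103A2 hairpin, and miR-103b is read from the opposite strand.
hsa-miR-103b: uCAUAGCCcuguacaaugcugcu
MiR-103b is the exact reverse complement of miR-103a-3p over all 23 bases.

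The arrays had 329 to 738 of the 2019 human probes above a blank limit, set per array at the mean plus 2 SD of its 925 blank spots (limits of 209 to 247). Hepatocyte markers were present, with 5 of 5 probes (miR-122-5p among them) above the limit on all 6 arrays and a summed raw signal of 8080 to 9524 on control and 8141 to 10272 on cisplatin arrays. None of 6 blood cell and 2 neural marker probes was tested. Of 6 endothelial, stromal and muscle markers, 3 were above the limit on all 6 arrays, with no raw signal over 346, and the sum over the list was 1400 to 1552 on control and 1390 to 1615 on cisplatin arrays.

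MiR-103a-3p was far above background in every sample. Its raw foreground signal was 2074, 2886 and 2660 on control arrays 1, 2 and 3, and 2479, 3339 and 3273 on cisplatin arrays 1, 2 and 3. Array 1 was the lowest of each group, and the groups overlapped, since cisplatin 1 lay below control 2 and control 3. These signals stood 9.42 to 14.4 times above the blank limit of their arrays, with local backgrounds of 140 to 167.

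MiR-107 showed the same layout. Its raw foreground was 1652, 2114 and 2238 on control arrays 1, 2 and 3, and 2088, 2739 and 2607 on cisplatin arrays 1, 2 and 3. Array 1 was again the lowest of each group, and cisplatin 1 lay below control 2 and control 3, so the groups overlapped. The signals stood 7.51 to 11.5 times above the blank limit, and neither probe came near saturation.

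**Figure D1:**
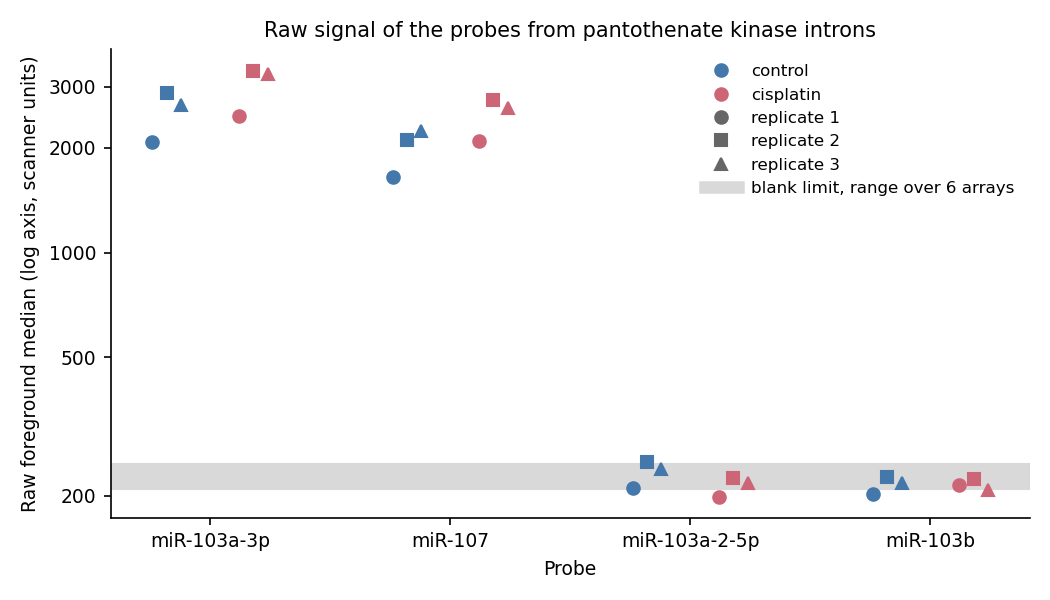
Raw foreground median of the 4 probes from the pantothenate kinase loci on each array (log axis, scanner units), control in blue and cisplatin in red, with a symbol per replicate number and the range of blank limits in grey. MiR-103a-3p lies between 2074 and 3339 and miR-107 between 1652 and 2739, while the other arm and the antisense probe lie at the blank limit, between 199 and 250.

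Mean raw signal of miR-103a-3p was 2540 ± 419 in control and 3030.3 ± 479 in cisplatin samples (SD, n = 3 each), a geometric fold of 1.19 (exact two-sided permutation p = 0.3 without the pairing, where 0.1 is the smallest p possible). For miR-107 the means were 2001 ± 309 and 2478 ± 344 (SD, n = 3 each), a fold of 1.24 (exact permutation p = 0.3). Each of these differences was larger than the SD of either group, while single arrays of the groups overlapped. Much of the spread lies between replicate numbers. Within same-numbered pairs the cisplatin array was brighter by 1.20, 1.16 and 1.23 times for miR-103a-3p and by 1.26, 1.30 and 1.16 times for miR-107. Both were thus brighter after cisplatin in 3 of 3 pairs, as were 85 of 324 tested probes (26.2%), and with 3 pairs an exact sign-flip p cannot lie below 0.25. Over all 324 tested probes the median raw ratio was 0.979, 1.04 and 1.03 in the 3 pairs, though raw signals of dim probes are mostly background, which holds their ratios near 1.

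In the analysis across all probes, signals were background-corrected, quantile-normalized and put on the log2 scale. There, miR-103a-3p stood at 11.39, 11.39 and 11.31 on control arrays 1, 2 and 3 and at 11.43, 11.54 and 11.39 on cisplatin arrays. Control arrays 1 and 2 and cisplatin array 3 shared 1 value, because the probe held rank 14 of 2019 on each of them. Its ranks were 14, 14 and 15 in control and 13, 11 and 14 in cisplatin samples. The log2 fold change was 0.094 (SE 0.061, 95% interval -0.058 to 0.25, limma adjusted p = 0.569), a fold of 1.07 with an interval from 0.961 to 1.19.

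MiR-107 stood at 10.96, 11.01 and 11.05 on control arrays 1, 2 and 3 and at 11.24, 11.05 and 11.01 on cisplatin arrays, with ranks of 21, 19 and 18 against 16, 18 and 19. Cisplatin array 1 was the highest of the 6, and the other 5 overlapped. The log2 fold change was 0.094 (SE 0.077, 95% interval -0.098 to 0.29, limma adjusted p = 0.666), a fold of 1.07 with an interval from 0.935 to 1.22. So 0 of the 2 passed, while 1 of 324 tested probes (0.309%) did. At an unadjusted p under 0.05 it was 0 of the 2 as well, against 51 of 324 (15.7%). Leaving out 1 array at a time gave 0.060 to 0.14 for miR-103a-3p, the lowest without cisplatin replicate 2 and the highest without cisplatin replicate 3. For miR-107 it gave 0.027, without cisplatin replicate 1, to 0.16, without cisplatin replicate 3.

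The size of the difference depended on how the arrays were put on 1 scale. Quantile normalization gives a probe the mean signal of its rank, and these probes moved by at most 5 ranks between arrays. With arrays scaled to their median instead, miR-103a-3p stood at 10.92, 11.44 and 11.29 on control and 11.27, 11.59 and 11.65 on cisplatin arrays, a log2 fold change of 0.29 (95% interval -0.078 to 0.65, limma adjusted p = 0.455). MiR-107 stood at 10.58, 10.97 and 11.03 against 11.02, 11.29 and 11.31, a log2 fold change of 0.35 (95% interval 0.0094 to 0.69, adjusted p = 0.383). Neither passed, where 2 of 324 probes (0.617%) did on this scale. At an unadjusted p under 0.05 it was 1 of the 2, which was miR-107, against 39 of 324 (12%). The groups still overlapped for both. With 75th percentile scaling miR-107 (limma adjusted p = 0.282) was also under 0.05 before adjustment, as were 48 of 324 probes (14.8%). On that scale its groups did not overlap, as in 65 of 324 on the higher side (20.1%). Values of 0.25 to 0.29 for miR-103a-3p and 0.32 to 0.35 for miR-107 also came from 75th percentile scaling, no normalization and the authors' deposited intensities, the last 0.14 and 0.21 after taking off a shift of all probes by 0.11. Cyclic loess gave 0.036 and 0.094. Scaling to the spike spots gave 0.086 and 0.15, or 0.20 and 0.26 after taking off the shift of all tested probes by -0.11. That shift was 0.088 with median scaling, 0.095 with the 75th percentile and 0.071 without normalization. Less the shift, each of these also gave 0.20 and 0.26. They and spike scaling differ only by a constant per array, so they are not separate results.

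**Figure D2:**
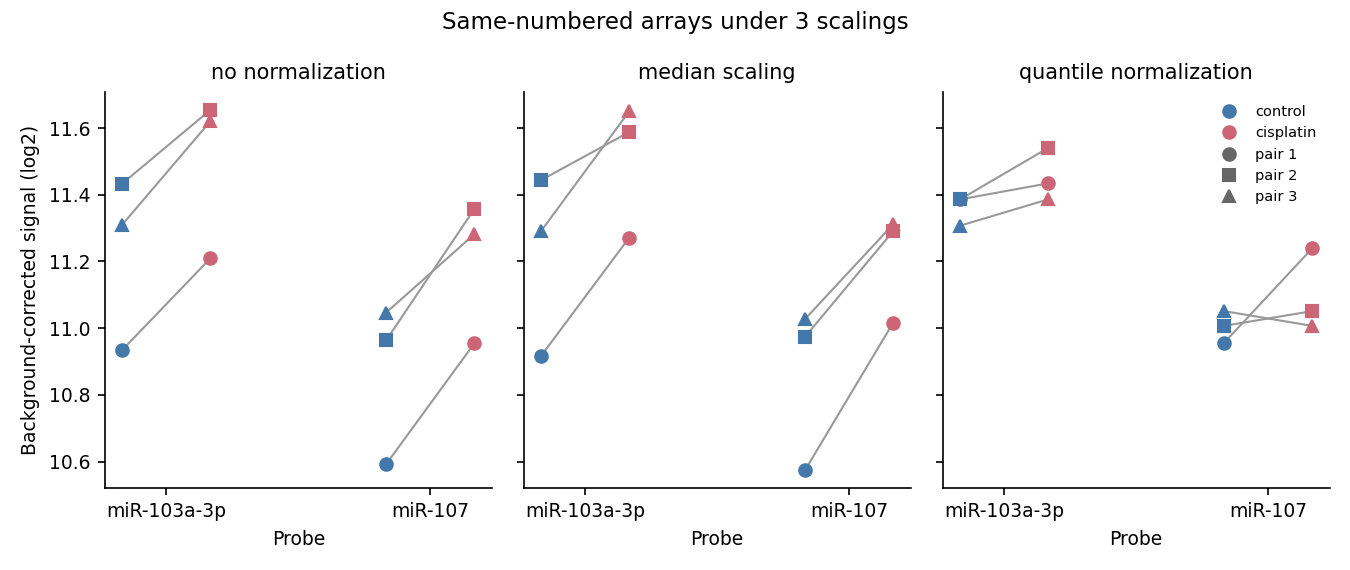
Background-corrected log2 signal of both probes on control (blue) and cisplatin (red) arrays, with lines joining same-numbered arrays, under no normalization, median scaling and quantile normalization (control 1 and 2 coincide for miR-103a-3p in the last). Every line goes up in the first 2 panels, and in the third the miR-107 line of pair 3 goes from 11.05 to 11.01.

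The numbers pair the samples by the rule used, since same-numbered arrays deviated together from their group means, so a fit that takes the number as a replicate block was also made. With quantile normalization it left both microRNAs short of the threshold (limma adjusted p = 0.404 for miR-103a-3p and 0.615 for miR-107), as it did all 324 probes. The interval of the fold was then 0.968 to 1.18 for miR-103a-3p, narrower than without the block, and 0.896 to 1.27 for miR-107, wider than without it. With median scaling and the block together, a combination chosen after the data had been seen, miR-107 passed at a log2 fold change of 0.35 (SE 0.090, 95% interval 0.14 to 0.55, limma adjusted p = 0.0494). The pairs contributed 0.44, 0.32 and 0.28. MiR-103a-3p did not pass at 0.29 (SE 0.093, adjusted p = 0.105), with pairs at 0.35, 0.14 and 0.36. In that fit 27 of 324 probes (8.33%) passed, 26 of them higher after cisplatin. The call of miR-107 was lost with the block and 75th percentile scaling (0.35, adjusted p = 0.0625) or no normalization (0.33, adjusted p = 0.0721), and with the block and the authors' values (0.32, adjusted p = 0.390), cyclic loess (0.094, adjusted p = 0.58) or spike scaling (0.15, adjusted p = 0.486).

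Bright probes as a group moved with this choice of scale, as did the tested probes as a whole. Among the 30 brightest tested probes, a set drawn after the data had been seen and holding both microRNAs, 25 had a positive difference with median scaling, with a median of 0.23, against 11 of 30 and a median of 0 with quantile normalization. Over all 324 tested probes, 222 were positive with median scaling (median 0.088), against 150 with quantile normalization (median -0.012). By size of the difference miR-107 ranked 11 and miR-103a-3p 12 of the 30 brightest with median scaling, and 7 and 8 with quantile normalization. The median that sets this scale comes from all human probes, of which at most 738 of 2019 on an array exceeded the blank limit. The part of this common movement in the values of miR-103a-3p and miR-107 was not tested.

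**Figure D3:**
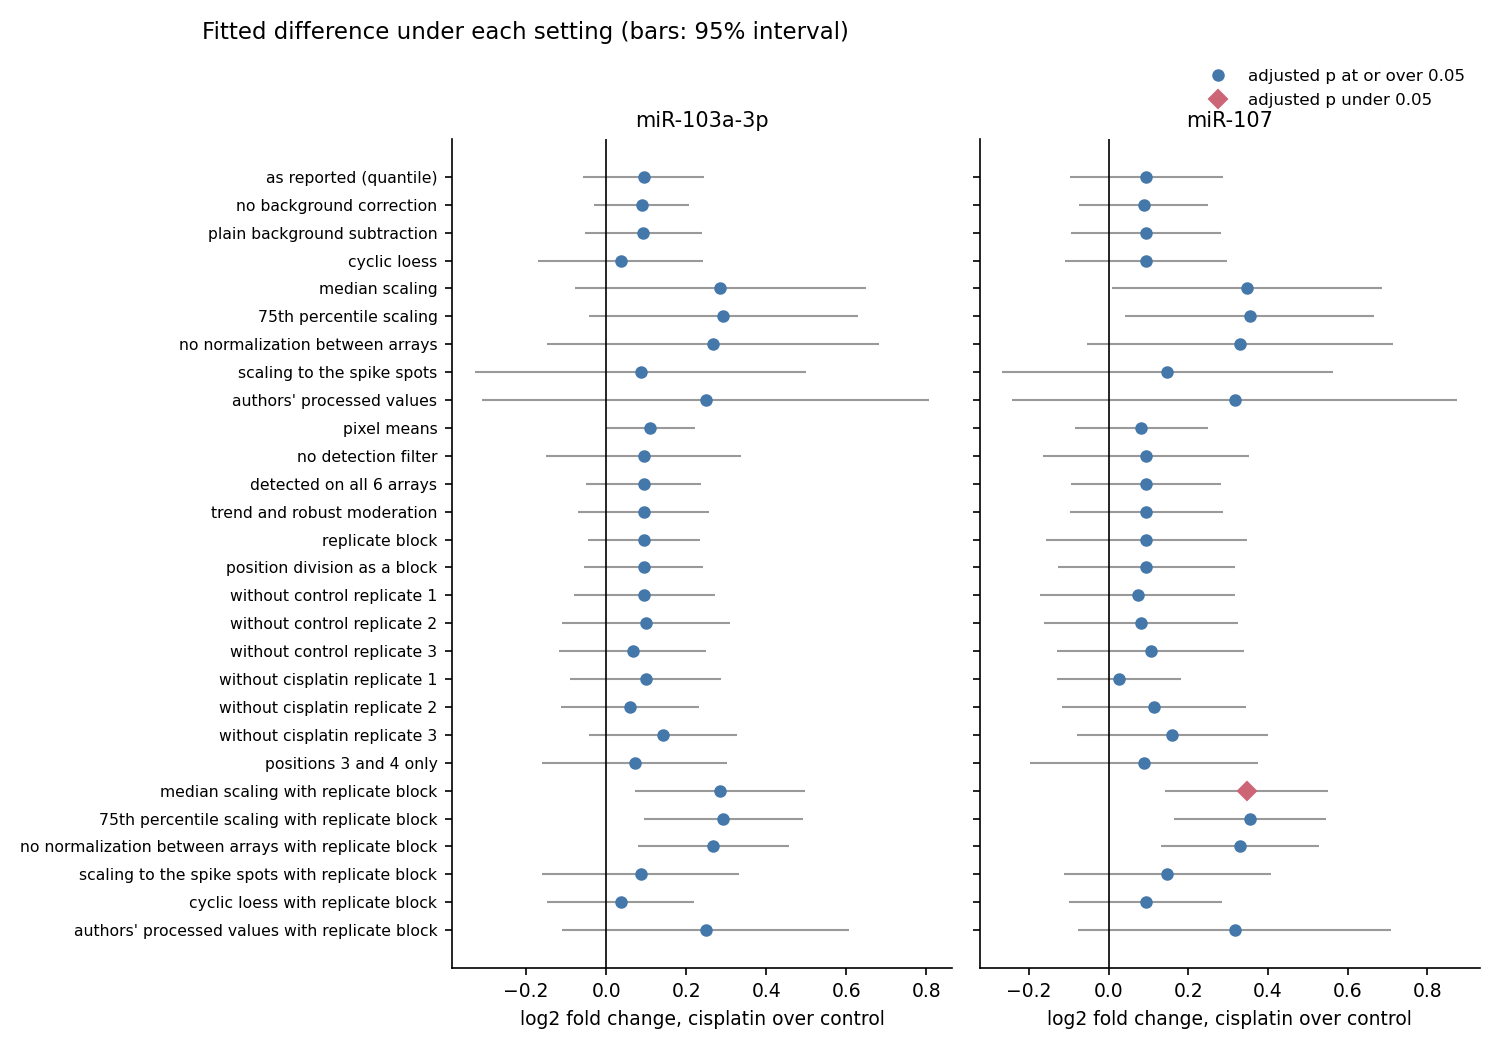
Log2 fold change of cisplatin over control for miR-103a-3p and miR-107 under each setting, with 95% intervals, and a red diamond where the adjusted p was under 0.05. Points lie between 0.036 and 0.29 for miR-103a-3p and between 0.027 and 0.35 for miR-107, and 1 setting, median scaling with the replicate block, carries a call.

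Whether the pair moved unequally was asked within each array, as the log2 signal of miR-103a-3p less that of miR-107. This is a difference between differences and gives no order of the 2 levels. With quantile normalization it was 0.43, 0.38 and 0.26 on control arrays 1, 2 and 3 and 0.19, 0.49 and 0.38 on cisplatin arrays. The groups overlapped throughout, with means of 0.36 ± 0.089 and 0.35 ± 0.15 (SD, n = 3 each), and their difference was -0.00072 (exact two-sided permutation p = 1, smallest possible 0.1). On raw signals the values were 0.33, 0.45 and 0.25 against 0.25, 0.29 and 0.33, a difference of -0.055 (exact permutation p = 0.5). No unequal response was detectable with these arrays. On raw signals the pair went up and down together, with an SD within groups of 0.24 log2 units for miR-103a-3p, 0.22 for miR-107 and 0.077 for their difference. On the quantile scale this was not so, with SDs of 0.064, 0.093 and 0.12. The raw layout was not particular to the pair. MiR-16-5p (1373 on control 1, 1681 on cisplatin 1) and miR-15b-5p (727 and 972), taken up below, were also lowest on array 1 of each group. Whether the pair moved together beyond the brightness of the arrays was not tested.

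The opposite strand and the other arm gave little signal. MiR-103b, the antisense microRNA, had raw signals of 202, 227 and 217 on control and 215, 224 and 208 on cisplatin arrays, above the blank limit on 0 of 3 and 1 of 3. So the antisense probe stayed near the blank limit on arrays where the miR-103a-3p probe was bright. MiR-103a-2-5p had 211, 250 and 239 on control and 199, 225 and 218 on cisplatin arrays, above the limit on 2 of 3 and 0 of 3. Neither met the detection rule, which asks for all 3 arrays of at least 1 group, and both were not tested. Of the 4 probes from these loci, 2 were tested.

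Beyond the shared seed, the letters AGCAGC at the 5′ end tie miR-103a-3p and miR-107 to the miR-15 and miR-16 family, known for restraining cyclins and the survival factor BCL2. In miR-103a-3p and miR-107 this run starts at base 1, and in the others at base 2 or 3, which shifts the seed. It occurs within bases 1 to 8 of 12 of the 1716 array names found in the RefSeq table (0.70%). The tested members are shown with their seed in capitals to set beside the first pair.
hsa-miR-16-5p: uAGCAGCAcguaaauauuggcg
hsa-miR-15b-5p: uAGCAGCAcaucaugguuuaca
hsa-miR-15a-5p: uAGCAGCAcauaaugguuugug
hsa-miR-424-5p: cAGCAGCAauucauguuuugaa
hsa-miR-503-5p: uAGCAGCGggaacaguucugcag
Of 10 microRNAs in this miR-15/miR-107 group, 7 were tested, miR-103a-3p and miR-107 among them. MiR-195-5p, miR-497-5p and miR-646 were not, with raw signals of 175 to 245, and neither were miR-4524a-5p and miR-4524b-5p, which also carry the letters (179 to 235).

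All 7 tested members had a positive log2 fold change, from 0.061 to 0.42 with a median of 0.094, against a median of -0.012 and 150 of 324 positive (46.3%) over all tested probes. With spike scaling 6 of the 7 were positive, as they were without control replicate 1 and without cisplatin replicate 3. It was 7 of 8 without control replicate 3 and with the authors' values. With cyclic loess, median scaling, 75th percentile scaling and no normalization it was 7 of 7. MiR-503-5p had the same mean raw signal of 251.3 in both groups, with raw signals of 235 to 270, near the blank limit. None of the 7 passed, against 0.309% of all probes, and 1 of 7 had an unadjusted p under 0.05, against 15.7%, a share near that of all probes. That was miR-424-5p, an X-linked member induced by hypoxia in endothelium, whose raw signal was 336, 479 and 414 on control arrays 1, 2 and 3 and 515, 539 and 558 on cisplatin arrays. Its groups did not overlap, as in 28 of 324 probes on the higher side (8.64%), and its log2 fold change was 0.42 (SE 0.13, limma adjusted p = 0.186).

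MiR-15b-5p had a log2 fold change of 0.22 (SE 0.13), miR-16-5p 0.13 (SE 0.098), miR-503-5p 0.062 (SE 0.078) and miR-15a-5p 0.061 (SE 0.12). MiR-16-5p is bright in most tissues, and miR-15a and miR-15b are its hairpin neighbours. The group's cisplatin array was the higher in all 3 pairs for 5 of 7, against 62 of 324 (19.1%). With median scaling it was 6 of 7 (against 125 of 324, 38.6%) and the median was 0.35, against 0.088 over all tested probes. With median scaling and the replicate block, 4 of 7 passed, which were miR-15b-5p (0.51, limma adjusted p = 0.0182), miR-16-5p (0.45, adjusted p = 0.0269), miR-424-5p (0.60, adjusted p = 0.0280) and miR-107, against 8.33% of all probes. With the block it was 2 of 7 for 75th percentile scaling (against 6.17%) and 3 of 7 for no normalization (against 6.17%). It was 0 of 7 for quantile normalization, cyclic loess and spike scaling, against 0, 4 and 7 of all 324 probes. The authors' deposited values, where 8 members could be fitted, gave 0 of 8, against 0 of 408. With so few probes passing, these counts of 0 say little about the group.

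**Figure D4:**
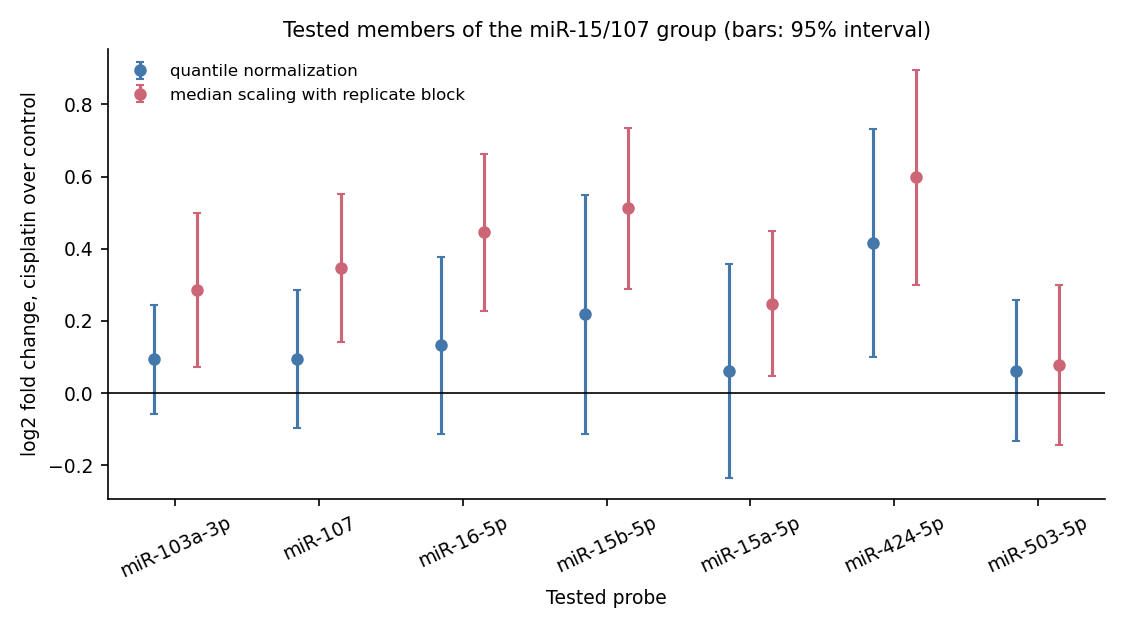
Log2 fold change of cisplatin over control, with 95% intervals, for the 7 tested members of the miR-15/miR-107 group, with quantile normalization (blue) and with median scaling and the replicate block (red). All 14 points are above 0, the red ones from 0.077 to 0.60 and the blue ones from 0.061 to 0.42.

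MiR-107 was also set among p53-associated microRNAs, of which 10 of 16 were tested. Of these 8 were positive (against 46.3% of all tested probes), 0 passed (against 0.309%) and 2 had an unadjusted p under 0.05 (against 15.7%). The median log2 fold change was 0.078 and lay between 0.078 and 0.30 over 6 normalizations (0.089 to 0.21 less the common shift). The 2 at an unadjusted p under 0.05, named after their values were seen, had differences of opposite sign, each keeping its sign over the 6 normalizations. MiR-34a-5p, a direct p53 target, had 0.32 (SE 0.084, limma adjusted p = 0.148). Its groups did not overlap, with cisplatin higher, as in 28 of 324 probes (8.64%), but they overlapped with spike scaling. MiR-34b-5p had -0.28 (SE 0.079, adjusted p = 0.169), with groups that did not overlap and cisplatin lower, as in 33 of 324 probes (10.2%). Its raw signals were only 194 to 249, and 3 of 3 control but 1 of 3 cisplatin arrays exceeded the blank limit. MiR-34b-5p thus met the detection rule through the control arrays alone, a route that favours a lower value after cisplatin. Its sign, p and lack of overlap are therefore not free of that selection, whose share was not tested. Beside miR-107 the brightest were miR-16-5p, miR-192-5p (-0.059, SE 0.070) and miR-194-5p (0.019, SE 0.089), of which the latter pair are also hepatocyte microRNAs. The list shares 3 of its tested members with the miR-15/miR-107 group. Among microRNAs linked to lipid or insulin handling, 8 of 14 were tested, 4 were positive (against 46.3%) and 0 passed (against 0.309%). At an unadjusted p under 0.05 it was 2 of 8 (against 15.7%), miR-122-5p and miR-378a-3p, both with a negative difference. The median of the 8 was 0.058, and -0.095 with spike scaling (0.017 less the common shift). Only 5 of the 8 were above the blank limit on all 6 arrays. MiR-33a-5p (-0.014) and miR-33a-3p (-0.046) met the detection rule through the control arrays alone, and miR-29c-3p (0.21) through the cisplatin arrays alone. Their signs, and with them the count of positives and the median, are not free of that selection, whose share was not tested. MiR-122-5p, the main liver microRNA and a driver of lipid synthesis, had -0.20 (SE 0.049, limma adjusted p = 0.130), and its groups did not overlap, with cisplatin lower, as in 33 of 324 probes (10.2%). MiR-29a-3p had 0.30 (SE 0.16), miR-29b-3p 0.13 (SE 0.14) and miR-378a-3p, from an intron of a mitochondrial regulator gene, -0.16 (SE 0.063, adjusted p = 0.313), also with groups that did not overlap. With median scaling miR-122-5p had -0.083 and miR-378a-3p 0.0087, a change of sign for the second, and the groups of both overlapped.

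The probes whose 6 normalized values ran most like those of miR-103a-3p, by the root mean square difference after centring each on its mean, were miR-3135b (0.049 log2 units), let-7d-5p (0.054) and miR-455-5p (0.065), where the median over tested probes was 0.16. For miR-107 they were miR-125a-5p (0.061), let-7a-5p (0.064) and miR-517c-3p (0.067), with a median of 0.17. MiR-517c-3p was dim, with a mean log2 signal of 6.72, below the 6.82 of miR-195-5p, which was not tested. A small value of this measure also arises between profiles that hardly vary, so it does not show that probes moved together. MiR-107 ranked 40 of the other 323 in likeness to miR-103a-3p, and miR-103a-3p ranked 30 in likeness to miR-107. So on the quantile scale the near-identical pair were not each other's closest profiles.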

How the data were processed

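Total RNA was labelled with Hy5 and hybridised to 1-colour arrays, per the labels. The scanner files hold linear intensity, per the file headers as pixel medians and means for every spot and the area around it, in columns headed 532. No scanner or software is named in the sources used here. All spots had flag 0. The authors' deposited value table also holds intensity. Set against the scanner values, each column is the foreground less a constant (184 to 213), times a factor of 0.930 to 1.09 (largest residual 5.4e-06), with a median of 31. It was an alternative only, and how the factor was set is not known.

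Normexp (offset 50) was applied to the median foreground with its local background. The 2019 human probes were then quantile-normalized and taken to log2. Tested were the 324 probes above the blank limit on all 3 arrays of at least 1 group. The cisplatin difference was fitted with lmFit and moderated with eBayes in limma 3.58.1 under R 4.3.3 (degrees of freedom 4 residual, 1.52 prior), with Benjamini-Hochberg adjustment at 0.05. Single values were compared by exact permutation over samples. Figures used matplotlib 3.10.9. The steps were tested on simulated data.

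The members and lists were chosen with earlier results of these data known. Named were both members, the probes of their loci and of the miR-15/miR-107 group, the 4 brightest tested probes of 2 further lists and the 3 most alike profiles of each member. The 30 brightest probes were added after the data had been seen.

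Same-numbered arrays had correlated deviations from their group means over the 324 probes (0.44, 0.24 and 0.20 for numbers 1, 2 and 3), all over 0.1, so numbers were taken to pair the samples. This rests on the labels' numbers and this check. Control 3 and cisplatin 2 correlated too (0.23). Each array also has a further number, taken here as its position, which was 3, 1 and 3 in control and 4, 2 and 4 in cisplatin samples. Reading it as a position is an interpretation. No value was shared between the groups. Whatever it stands for, its effect and that of treatment cannot be told apart.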

Additional observations from a re-analysis of the deposited data

How the results depend on the processing

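Settings chosen after the data had been seen were positions 3 and 4 only and each other scaling joined with the replicate block. The number of probes that passed was 1, and 3 without background correction (1 higher, 2 lower), 4 with cyclic loess, 2 with median scaling, 3 with the 75th percentile (all higher in these) and 5 with pixel means (3 higher). The number was 0 without normalization, with spike scaling, with trend and robust moderation and with the replicate block. There limma gave 33, 13, 38 and 56 of 324 probes at an unadjusted p under 0.05. Other numbers of probes were tested, and 0 passed, with the authors' values (30 of 408 at that level) and no detection filter (97 of 2019). The same held with detection on all 6 arrays (39 of 243) and positions 3 and 4 only (68 of 549). Leaving out 1 array gave 0 to 0, with 46 to 85 at that level, where 333 to 460 probes were tested. With the block the number that passed, of 324, was 27 for median scaling, 20 for the 75th percentile and 20 without normalization. It was 7 for spike scaling and 4 for cyclic loess. For the authors' values it was 0 of 408 (60 at an unadjusted limma p under 0.05).

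Over 27 alternatives miR-103a-3p and miR-107 were positive throughout (0.036 to 0.29 and 0.027 to 0.35), with limma adjusted p from 0.0996 to 0.985 and from 0.0494 to 0.955. The 1 call was miR-107 at 0.35 with median scaling and the block. Blocks, moderation and the filter could not change these log2 fold changes, only their adjusted p. Settings that differ in those steps alone therefore repeat 1 estimate and add no separate support for its sign. The difference between the pair turned to 0.00091 without background correction and 0.028 with pixel means, and lay between -0.053 and 0.073 with any 1 array left out. The group median moved from 0.094 to 0.35 with median scaling, 0.35 with the 75th percentile, 0.33 without normalization, 0.31 with the authors' values (the same with the block) and 0.16 with pixel means, and was 0.096 to 0.15 with 1 array left out. Less the shift of all tested probes, the group median was 0.11 with quantile normalization. It was 0.26 on that measure with median scaling, the 75th percentile and no normalization, 0.20 with the authors' values and 0.18 with pixel means. The cause of these changes was not tested.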
